A study of Mus musculus with 5 samples.

Results

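The genes of sterol and fatty acid synthesis were followed on 5 Affymetrix mouse expression arrays of embryonic stem (ES) cell-derived cells. The members are a fixed list of 34 genes, chosen with earlier results of these data known. They were found by gene symbol in the platform annotation. For each, the probe set brightest on average across the 5 arrays was used. Of the 34, 33 were found among 18193 named genes, and Acat2, which had no probe set with that single symbol, was not analysed here. The 33 comprise 17 sterol enzyme genes, 11 fatty acid genes, and 5 regulators and sterol transfer genes. Of the sterol enzyme genes 7 belong to the mevalonate arm and 10 to the sterol arm. Acss2, Acly and Me1, which supply acetyl-CoA and NADPH, were counted with the fatty acid genes. All 33 lay above the signal floor of 86.8 (the median signal once control probe sets are set aside) on each of the 5 arrays.

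The cells had been differentiated towards a pancreatic fate on gelatin-coated plastic, and total RNA of each culture was hybridised to 1 array. The 5 groups were control cells at day 5, at day 6 and at day 8, cells at day 6 after 1 day with 2 µM MPA, and cells at day 8 after 3 days with 2 µM MPA. MPA, added from day 5 on, is the label's own abbreviation and is not spelled out there. The labels name no ES cell line, genotype or vehicle. With 1 array per group, a difference between a pair of arrays has no replicate error and no test, so sizes are described beside the same count over all genes.

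Cells build cholesterol from acetyl-CoA through mevalonate, squalene and lanosterol, and build fatty acids from the same acetyl-CoA through malonyl-CoA. Both routes are transcribed under the SREBP factors: Srebf2 is best known for the sterol enzymes and Srebf1 for the fatty acid enzymes. Scap escorts the SREBP precursors from the endoplasmic reticulum to be cleaved, and Insig proteins hold Scap back when sterols are plentiful. Rapidly dividing cells, ES cells among them, need both products for new membrane.

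The 5 arrays were alike in scale. Their median signals ran from 78.1 on the day 6 MPA array to 94.3, and 46.7% to 51.9% of probe sets lay above the floor, again lowest with MPA at day 6. The 3' to 5' signal ratio of Gapdh, which rises when RNA is degraded or copied short, was 1.08 to 1.57 over the arrays, with 1.19 for the day 6 control and 1.31 for its MPA partner. That of Actb was 2.08 at day 5 and 2.71 to 3.06 on the other 4 arrays, with 3.04 for the day 6 control and 3.06 for its MPA partner. Defining pancreatic progenitor markers were low. Pdx1 was under the floor on 4 arrays and reached 90.4 with MPA at day 8, while Mnx1 reached 1520 in the day 6 control. Among pluripotency genes, Pou5f1 gave a signal of 7600 at day 5 and 1020 in the day 6 control.

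The stretch of DNA before the start site is shown first for 4 members, chosen in part by their gaps between MPA and control at day 6. These are Hmgcs1, an early enzyme of the mevalonate arm with the only match to the sterol element searched, Lss and Msmo1, with the widest gaps of the sterol arm, and Acss2, with the widest gap of the fatty acid genes. Each line is the 250 bases before the start in RefSeq (GRCm38.p6), 5' to 3' on the strand of the gene. Capitals mark matches, on either strand, to TCACNCCAC (a sterol regulatory element core), CCAAT (the box bound by NF-Y) or GGGCGG (a GC box bound by Sp factors). The windows are chr13:119690101-119690350 (+) for Hmgcs1, chr10:76531355-76531604 (+) for Lss, chr8:64733579-64733828 (-) for Msmo1 and chr2:155517793-155518042 (+) for Acss2.
Hmgcs1: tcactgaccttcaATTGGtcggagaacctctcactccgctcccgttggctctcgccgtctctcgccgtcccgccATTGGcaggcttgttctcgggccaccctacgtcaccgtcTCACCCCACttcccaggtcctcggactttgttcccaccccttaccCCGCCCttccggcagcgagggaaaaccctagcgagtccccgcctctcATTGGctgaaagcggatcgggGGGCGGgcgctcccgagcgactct
Lss: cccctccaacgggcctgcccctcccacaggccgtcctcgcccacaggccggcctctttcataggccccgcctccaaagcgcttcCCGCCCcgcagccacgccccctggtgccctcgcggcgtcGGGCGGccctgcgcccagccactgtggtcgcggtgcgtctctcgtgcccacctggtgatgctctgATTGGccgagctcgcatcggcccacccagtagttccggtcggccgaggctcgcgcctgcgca
Msmo1: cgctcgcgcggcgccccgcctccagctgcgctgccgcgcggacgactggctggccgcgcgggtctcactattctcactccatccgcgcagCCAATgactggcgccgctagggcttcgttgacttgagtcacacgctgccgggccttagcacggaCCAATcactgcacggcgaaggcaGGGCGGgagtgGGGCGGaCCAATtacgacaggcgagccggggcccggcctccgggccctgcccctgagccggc
Acss2: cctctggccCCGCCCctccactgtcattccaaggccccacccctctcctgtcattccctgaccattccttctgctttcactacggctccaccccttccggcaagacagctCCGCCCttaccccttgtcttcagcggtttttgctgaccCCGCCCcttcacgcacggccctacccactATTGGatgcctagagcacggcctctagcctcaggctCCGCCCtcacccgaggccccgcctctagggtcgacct

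A RefSeq window was given for 26 of the 33 members. The sterol element core was found in 1 of the 26, Hmgcs1, where TCACCCCAC begins 137 bases upstream of the start. It was found in 1.05% of all 32851 windows and in 1.32% of the 9902 measured genes with a window. A CCAAT box was found in 21 of the 26 members, in 14 of 14 sterol enzyme genes and in 4 of 8 fatty acid genes, against 33.8% of all windows and 40.6% of the 9902 measured genes with a window. A GC box was found in 21 of the 26, in 13 of 14 sterol enzyme genes and in 4 of 8 fatty acid genes, against 32.7% of all windows and 63.9% of measured genes. Msmo1 held 3 CCAAT boxes, the nearest to the start beginning 55 bases upstream, and Hmgcs1 held 3. A match is a description of the letters, not a measured binding site. The 3 motifs can share a few bases with each other, and no matches overlap in the 4 windows shown.

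After 1 day of MPA nearly the whole pathway was lower. Of the 33 members, 32 were lower than in the day 6 control, where 48.5% of 12240 measured genes were, and 18 were at least 2-fold lower, against 3.15% of measured genes. Against the 9091 genes that, like the members, lay above the floor on all 5 arrays, the share at least 2-fold lower was 2.43%. The median log2 difference was -1.02 (2.03-fold lower), against 0.02 over all genes. All 17 sterol enzyme genes were lower (median -1.18, 11 at least 2-fold) and so were all 11 fatty acid genes (median -0.93, 5 at least 2-fold). Scap was the exception. In bulk RNA, fewer cells of a type and less RNA per cell cannot be told apart.

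**Figure D1:**
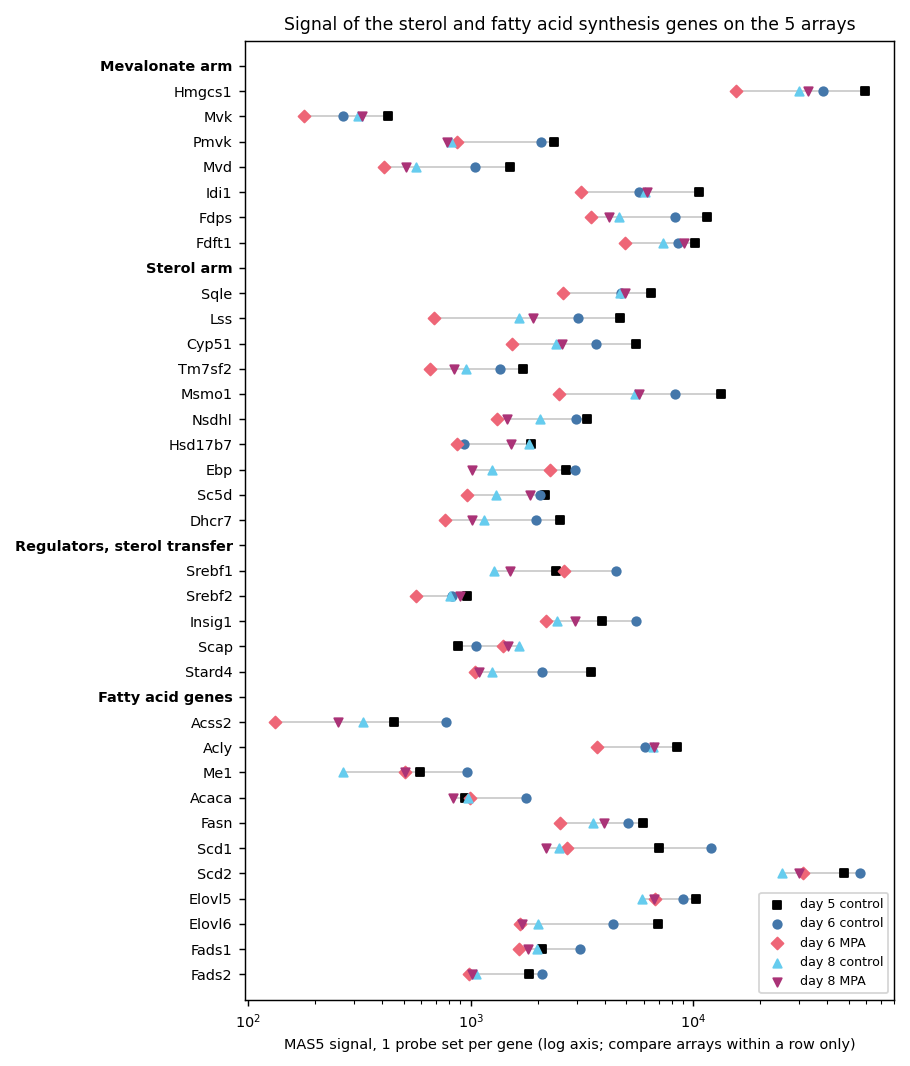
Signal of each of the 33 members on the 5 arrays (horizontal log axis, MAS5 signal), 1 row per gene, 1 symbol per array. The red diamonds of the day 6 MPA array lie at the left end of 24 rows, 15 of them among the 17 sterol enzyme genes. Signals are comparable along a row, not between rows.

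The mevalonate arm opens with Hmgcs1, the cytosolic HMG-CoA synthase. Signals are given throughout in the order day 5, day 6 control, day 6 MPA, day 8 control, day 8 MPA, and for Hmgcs1 they were 59078, 38158, 15546, 29898 and 32958. The MPA array at day 6 was the lowest of the 5, 2.45-fold under its control, and the day 8 arrays lay close together. Mvd, the decarboxylase that makes isopentenyl diphosphate, gave signals of 1502, 1047, 409, 569 and 511 and was 2.56-fold lower with MPA at day 6. Fdps, which makes farnesyl diphosphate, gave 11525, 8279, 3491, 4637 and 4200 and was 2.37-fold lower. Both also lay lower in the controls at day 8 than at day 6.

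Pmvk, phosphomevalonate kinase, gave 2377, 2066, 867, 817 and 783, so its day 6 MPA signal was close to both day 8 signals rather than below them. Mvk, mevalonate kinase and the dimmest of the arm, gave 426, 267, 178, 313 and 326 (a log2 difference of -0.58 with MPA at day 6). Idi1, the isopentenyl diphosphate isomerase, gave 10623, 5703, 3122, 6077 and 6232 (1.83-fold lower), while its second probe set differed by -0.48 log2 (1570 against 1130). Fdft1, squalene synthase, gave 10174, 8519, 4959, 7317 and 9082 (1.72-fold lower). The log2 differences of the 7 genes of the arm ran from -1.36 to -0.58 with a median of -1.25, and 4 of the 7 were at least 2-fold lower.

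In the sterol arm the widest gap was that of Lss, lanosterol synthase, which closes squalene epoxide into the ring system. Lss gave signals of 4683, 3037, 683, 1652 and 1916. The day 6 MPA signal was 4.45-fold under its control and under each of the other arrays. A second Lss probe set, dimmer, read 1090 in the day 6 control and 193 with MPA, a log2 difference of -2.50 against -2.15 for the brighter one. Msmo1, the methylsterol monooxygenase, gave 13287, 8264, 2498, 5472 and 5689 (3.31-fold lower at day 6).

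Dhcr7, the reductase that yields cholesterol in the last step of its branch, gave 2519, 1962, 770, 1146 and 1019 and was 2.55-fold lower with MPA at day 6. Cyp51, lanosterol demethylase, gave 5529, 3665, 1529, 2417 and 2571 (2.40-fold lower), but its second probe set differed by only -0.38 log2 (2200 against 1690). Nsdhl, a sterol dehydrogenase of the demethylation complex, gave 3330, 2987, 1316, 2048 and 1459 (2.27-fold lower) and was the member furthest below its control at day 8. Sc5d, a sterol desaturase, gave 2156, 2060, 967, 1305 and 1840 (2.13-fold lower), and Tm7sf2, a sterol reductase, gave 1718, 1359, 660, 952 and 844 (2.06-fold lower). The second Sc5d probe set differed by -0.49 log2 where the brighter one differed by -1.09. Sqle, squalene epoxidase and a rate-setting step of the arm, gave 6432, 4746, 2600, 4708 and 4916 (1.83-fold lower), and both day 8 signals were near the day 6 control.

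The smallest gaps at day 6 in the sterol arm were those of Ebp and Hsd17b7. Ebp, the sterol isomerase, gave 2678, 2947, 2282, 1248 and 1016, so both day 8 arrays were lower than the day 6 MPA array. Hsd17b7, a sterol ketoreductase, gave 1874, 932, 873, 1825 and 1514, and by this probe set its low point was day 6 with or without MPA. A second probe set read alike (896, 429, 384, 787 and 786). A dimmer one was nearly level in the controls and lowest with MPA at day 6 (350, 322, 244, 344 and 355). Over the 10 genes of the arm the median log2 difference was -1.14, and 7 were at least 2-fold lower.

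Among the regulators, Insig1, itself a well known SREBP target, gave 3898, 5511, 2187, 2449 and 2950. It was 2.52-fold lower with MPA at day 6. Srebf1 gave 2413, 4518, 2633, 1278 and 1498, which places the day 6 control above all others and its MPA partner near day 5. Srebf2 gave 964, 829, 569, 805 and 899 (1.46-fold lower with MPA at day 6). Stard4, a sterol transfer protein, gave 3475, 2096, 1044, 1250 and 1094 (2.01-fold lower). Scap went the other way from the pathway it serves: it gave 881, 1059, 1393, 1643 and 1476, and was 1.32-fold higher with MPA at day 6.

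Acss2, which makes cytosolic acetyl-CoA from acetate, had the widest gap of all members, with signals of 454, 778, 132, 329 and 253. It was 5.89-fold lower with MPA at day 6, and a second probe set read 843 in the control and 164 with MPA, a log2 difference of -2.36. Scd1, a stearoyl-CoA desaturase, gave 6994, 12036, 2704, 2499 and 2191, which is 4.45-fold lower with MPA at day 6, close to the level that both day 8 cultures had. A second Scd1 probe set read 2680 in the day 6 control and 506 with MPA. Scd2, a close copy of Scd1 whose probe sets may share targets with it, gave 47622, 56234, 31138, 24994 and 29740 (1.81-fold lower), and its further probe sets differed by -1.43 and -1.48 log2.

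Elovl6, the elongase of saturated chains, gave 6948, 4369, 1669, 2011 and 1704 (2.62-fold lower with MPA at day 6). Fads2 and Fads1, the desaturases of polyunsaturated chains, were 2.13- and 1.87-fold lower: Fads2 gave 1829, 2087, 980, 1056 and 1018, and Fads1 gave 2102, 3103, 1656, 1980 and 1805. A dim second Fads1 probe set differed by -0.40 log2 (195 against 148). Fasn, fatty acid synthase, gave 5930, 5108, 2513, 3563 and 3969 (2.03-fold lower). Acaca, acetyl-CoA carboxylase, gave 948, 1776, 996, 970 and 836 (1.78-fold lower), a day 6 control that stood above the other 4 arrays. Acly, which splits citrate into acetyl-CoA, gave 8416, 6051, 3680, 6628 and 6659 (1.64-fold lower).

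Me1, a malic enzyme that supplies NADPH, gave 595, 964, 505, 268 and 507 (1.91-fold lower with MPA at day 6), yet its second probe set read 368 and 349, nearly level. Elovl5, the elongase of polyunsaturated chains, gave 10270, 8963, 6759, 5902 and 6693 and had the smallest gap of the fatty acid genes, 1.33-fold. The medians of the sterol enzyme and fatty acid genes differed by -0.25 (log2, sterol minus fatty acid). That difference turned to 0.08 with the mean over all probe sets of a gene and to 0.22 with the second brightest probe set, so neither group can be said to be further below its control.

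**Figure D2:**
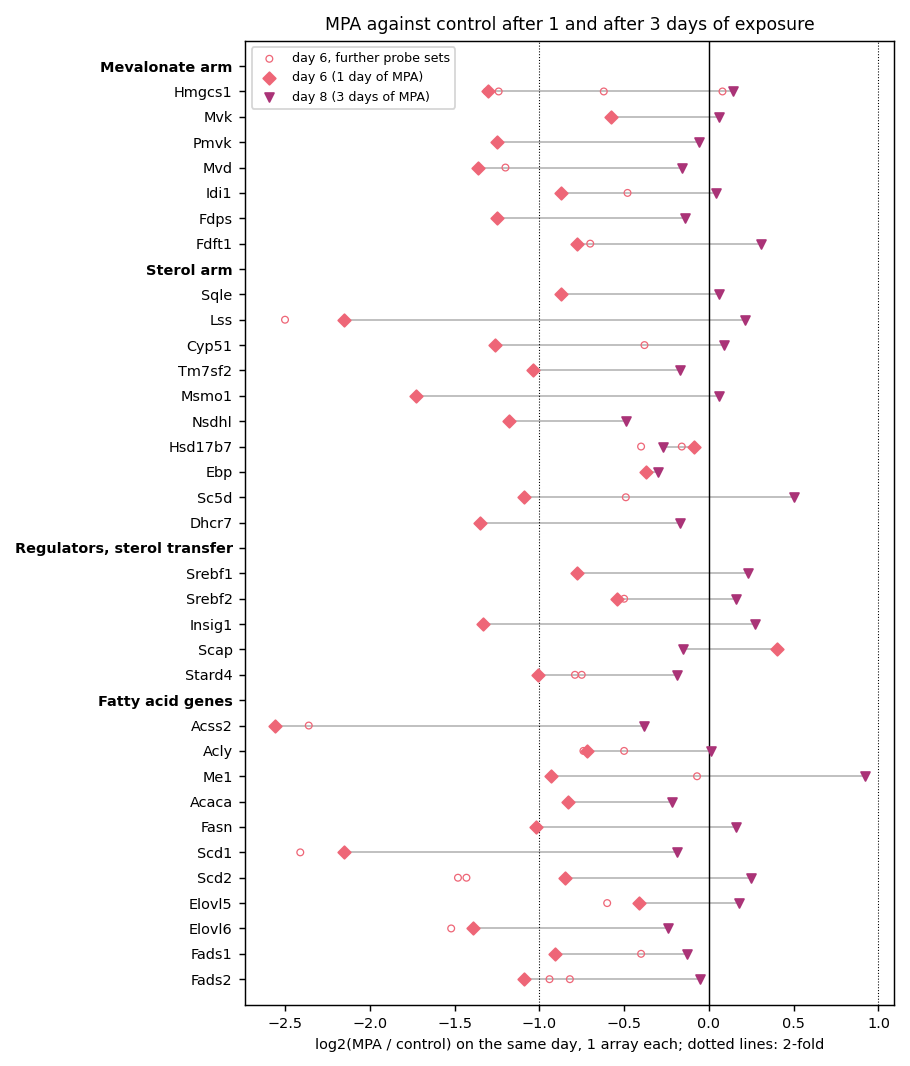
Log2 ratio of the MPA array to the control array of the same day for each of the 33 members (horizontal axis, 1 array each), at day 6 (diamonds) and day 8 (triangles). Open circles are further probe sets of the same genes at day 6 that lay above the floor on both arrays. At day 6, 18 diamonds lie at or left of the 2-fold line, and at day 8 no triangle lies past either 2-fold line.

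Further probe sets of the members nearly all pointed the same way at day 6, though often with smaller gaps. Of 27 such probe sets, from 19 genes, above the floor on both arrays, 26 were lower with MPA (median -0.74), and the exception was a dim Hmgcs1 probe set at 92.3 against 87.5. By second brightest probe sets the sterol enzyme median was -0.59 (8 genes), against -1.18 by the brightest ones (17 genes). The fatty acid median was -0.82 (9 genes), against -0.93 (11 genes). When the probe sets of each gene were averaged, 12 members were 2-fold apart at day 6, against 18 by the brightest ones. For 10 of the 33 members the chosen probe set carries a suffix of probe sets that may match several transcripts or genes. The day 6 MPA array was the lowest of the 5 for 24 of 33 members (15 of 17 sterol enzyme genes, 6 of 11 fatty acid genes and 3 of 5 regulators), where it was the lowest for 15.1% of the 9091 genes above the floor on all arrays. Set against the day 8 control in place of the day 6 control, a comparison chosen after the data had been seen, 15 of 17 sterol enzyme genes were still lower with a median of -0.64, where 50.8% of 12457 measured genes were. Of the fatty acid genes 6 of 11 then were, near that share, with a median of -0.11. Set against the day 5 control, 17 of 17 sterol enzyme genes (median -1.46) and 10 of 11 fatty acid genes (median -0.90) were lower, where 47.7% of 12277 genes were.

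After 3 days of MPA the members lay near their control. At day 8, 16 of 33 were lower, against 51.9% of all 12599 measured genes, and none was 2-fold lower or 2-fold higher, where 3.18% and 3.72% of genes were. The median log2 difference was 0.01 over all members, 0.04 over the sterol enzyme genes and -0.05 over the fatty acid genes. Of the 33, 24 lay within 0.25 log2 of the control, 32 had a smaller gap than at day 6, and the median size of the gap was 0.17 against 1.02 at day 6. Values ran from -0.49 for Nsdhl (2048 against 1459) to 0.92 for Me1 (268 against 507), whose second probe set again showed nearly no gap, 274 against 286. Lss and Msmo1, far apart at day 6, differed by 1.16- and 1.04-fold, both higher with MPA.

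A limma fit of the 4 arrays from day 6 and day 8, with a term for each day, tested the mean of a gene's MPA differences on both days against 0. Its error is the disagreement between the days (1 residual degree of freedom), not the spread between cultures. A gap on 1 day only raises that error along with the mean, so the fit can say little about such a gene. None of the 33 members passed an adjusted p of 0.05, and 1 of 11599 genes did (0.00862%). At an unadjusted p under 0.05, 5 members passed, all lower, as did 739 of all genes. Nsdhl had the smallest adjusted p, 0.623 (limma, Benjamini-Hochberg over all genes), at a mean log2 difference of -0.84 with an SE of 0.25, lower on both days. Elovl6, Acss2, Fdps and Dhcr7 were the others, with mean log2 differences of -0.81, -1.47, -0.69 and -0.76. The difference between the days was not itself tested for any member, since no day has a second array.

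In the controls most sterol enzyme genes were lower at day 6 than at day 5, and the fatty acid genes were mixed. Of the 17 sterol enzyme genes 16 were lower at day 6 than at day 5 (median -0.48), where 48.4% of 12611 genes were. Of the 11 fatty acid genes 7 were higher and 4 lower (median 0.24), where 51.6% of genes were higher. The sterol median minus the fatty acid median was -0.72, and it lay between -0.83 and -0.53 under the other settings tried. The Actb 3' to 5' ratio moved between the same arrays, from 2.08 to 3.04, and its part was not tested. Sizes were modest: 1 member, Hsd17b7 (2.01-fold), was 2-fold lower, against 4.4% of genes. Further Hsd17b7 probe sets differed by -1.06 and -0.12 log2.

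All 7 genes of the mevalonate arm were lower at day 6, from 1.15-fold for Pmvk to 1.86-fold for Idi1, and Ebp was the sterol enzyme gene that was not (1.10-fold higher). Acaca (1.87-fold), Scd1 (1.72-fold), Acss2 (1.71-fold), Me1 (1.62-fold) and Fads1 (1.48-fold) were higher at day 6, and so were the regulators Srebf1 (1.87-fold) and Insig1 (1.41-fold). Elovl6, Acly, Fasn and Elovl5 were lower along with the sterol genes, by 1.59-, 1.39-, 1.16- and 1.15-fold. The 7 fatty acid genes that were higher had their highest signal of all 5 arrays in the day 6 control. That array is also the control for MPA at day 6 and the base of the comparison with day 8, so these 3 comparisons are not independent of each other.

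From day 6 to day 8 both groups were lower in the controls. Of the 33 members 28 were lower, where 48.7% of 12824 genes were, and 9 were at least 2-fold lower, where 6.43% were. The fatty acid median was -0.98 with 10 of 11 lower, and the sterol enzyme median was -0.59 with 14 of 17 lower. The difference of 0.39 between them was 0.11 with the mean over probe sets, where the fatty acid median was -0.53. The second brightest probe set lay above the floor on all 5 arrays for 8 sterol enzyme genes. With it the sterol enzyme median was -0.14, with 4 lower. Scd1 was 4.82-fold lower and Srebf1 3.54-fold. Me1 was 3.60-fold lower by its brighter probe set (log2 -1.85), while its second one differed by -0.42 (368 against 274). Pmvk (2.53-fold) and Ebp (2.36-fold) were the sterol enzyme genes past 2-fold, and Hsd17b7 was higher by 1.96-fold. Further Hsd17b7 probe sets differed by 0.88 and 0.09 log2.

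Over the whole span from day 5 to day 8, 31 of 33 members were lower in the controls, where 47.4% of 12784 genes were, and 12 were at least 2-fold lower, where 7.27% were. All 17 sterol enzyme genes were lower (median -0.98), Pmvk by 2.91-fold, Lss by 2.83-fold, Mvd by 2.64-fold, Fdps by 2.49-fold and Msmo1 by 2.43-fold. Of the fatty acid genes 10 of 11 were lower (median -0.79), with Elovl6 at 3.46-fold and Scd1 at 2.80-fold. By the brightest probe sets, the 2 members that were higher were Scap (1.86-fold) and Acaca (1.02-fold, nearly level). Of 31 further probe sets above the floor on both arrays, 27 were lower (median -0.59). Second probe sets of Me1 (177 and 274, log2 0.64) and Mvk (106 and 163, 0.62) were higher at day 8. So were further ones of Elovl6 (0.73) and Fads2 (0.27). With the mean over probe sets the fatty acid median was -0.43. In the controls of day 5, day 6 and day 8 the summed signal of 7 cycling-cell genes was 53797, 61472 and 34629. That of 8 pluripotency genes was 64424, 9242 and 2044. Their part in the member values was not tested.

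**Figure D3:**
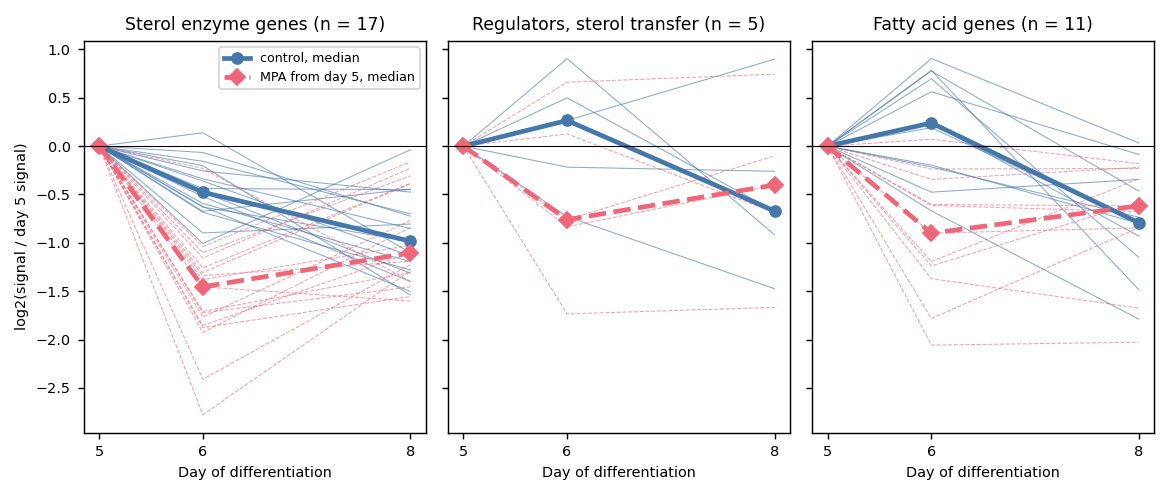
Log2 ratio of each member's signal to its day 5 signal (vertical axis) against day of differentiation, for the 17 sterol enzyme genes, 5 regulators and sterol transfer genes and 11 fatty acid genes. Thin lines are genes, thick lines are medians, solid for controls and dashed for MPA from day 5 on, and both start from the same day 5 control array. The control median of the sterol enzyme genes is already below day 5 at day 6 (-0.48), that of the fatty acid genes is above it (0.24), and the MPA medians are lowest at day 6.

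Under MPA the sterol genes went the opposite way between day 6 and day 8. Of the 17 sterol enzyme genes, 15 were higher at day 8 than at day 6 (median 0.79), where 47.7% of 12257 genes were. Of the 11 fatty acid genes 7 were higher, with a median of 0.03. Lss was 2.81-fold higher, Msmo1 2.28-fold and Hmgcs1 2.12-fold. These were the 3 members at least 2-fold higher, where 7.64% of genes were, and Idi1 (3122 against 6232) lay just short of it. Ebp was the 1 member at least 2-fold lower (2.25-fold), where 7.64% of genes were as well.

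Acss2 (1.92-fold higher), Acly (1.81-fold) and Fasn (1.58-fold) were also higher, but the second Acss2 probe set was lower at day 8 (164 at day 6 and 108 at day 8, log2 -0.60). By their brightest probe sets the 6 desaturases and elongases lay within 1.23-fold of their day 6 MPA signal, with a median log2 difference of 0.01. Second probe sets of some differed by more, with log2 differences of -0.85 for Scd1 (506 and 281), -0.56 for Scd2 and 0.48 for Elovl6 (851 and 1180). Among the sterol enzyme genes, second probe sets of Mvd and Cyp51 differed by -0.16 and -0.13, where the brightest ones differed by 0.32 and 0.75. The second Idi1 probe set differed by 0.09 (1130 and 1200), far less than the brightest one. The sterol median minus the fatty acid median was 0.76 here, between 0.39 and 0.76 under the other settings tried, and the sterol enzyme median was 0.40 with the mean over probe sets. This comparison shares the day 6 MPA array with the day 6 comparison, and a low value there enters both.

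Related lipid genes outside the member list were mixed at day 6. Of 5 other measured genes of the SREBP pathway, 2 were lower with MPA at day 6 and 3 higher (median 0.03), and Mbtps2, a protease that cleaves SREBP precursors, was 1.33-fold higher. Of 6 genes of LXR signalling and sterol efflux, 3 were lower and 3 higher (median 0.02). Abca1, the cholesterol exporter, was 1.75-fold higher at day 6 (187 against 327) and 2.94-fold higher at day 8 (158 against 463). Over the 5 genes of that list measured at day 8 the median was 0.08, with 4 higher and 1 lower, where 51.9% of 12599 measured genes were lower. The lower one was Abcg1, at 214 in the control and 71.5, under the floor, with MPA. Of 6 genes that branch off the mevalonate pathway to prenyl groups and dolichol, 3 were lower and 3 higher (median 0.01), with Pdss2, which makes the ubiquinone side chain, 1.92-fold lower.

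Of 14 further genes of fatty acid synthesis and elongation, 11 were lower at day 6, where 48.5% of 12240 measured genes were. None of them was 2-fold lower, and the median was -0.17. Tecr, a reductase of the elongation cycle, was 1.84-fold lower and Slc25a1, the mitochondrial citrate carrier, 1.83-fold lower. Of 11 fatty acid oxidation genes 9 were higher (median 0.53). Acadvl, the very long chain dehydrogenase, was 1.77-fold higher, and Slc25a20, the carnitine carrier, was 2.74-fold higher although its second probe set went down from 235 to 101. Among 8 glycerolipid and lipid droplet genes, 5 were higher and 3 lower (median 0.05). Plin2, a coat protein of lipid droplets, went from 3453 in the day 6 control to 10975 with MPA (3.18-fold higher), and Lpin1, a phosphatidate phosphatase, was 2.23-fold lower.

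**Figure D4:**
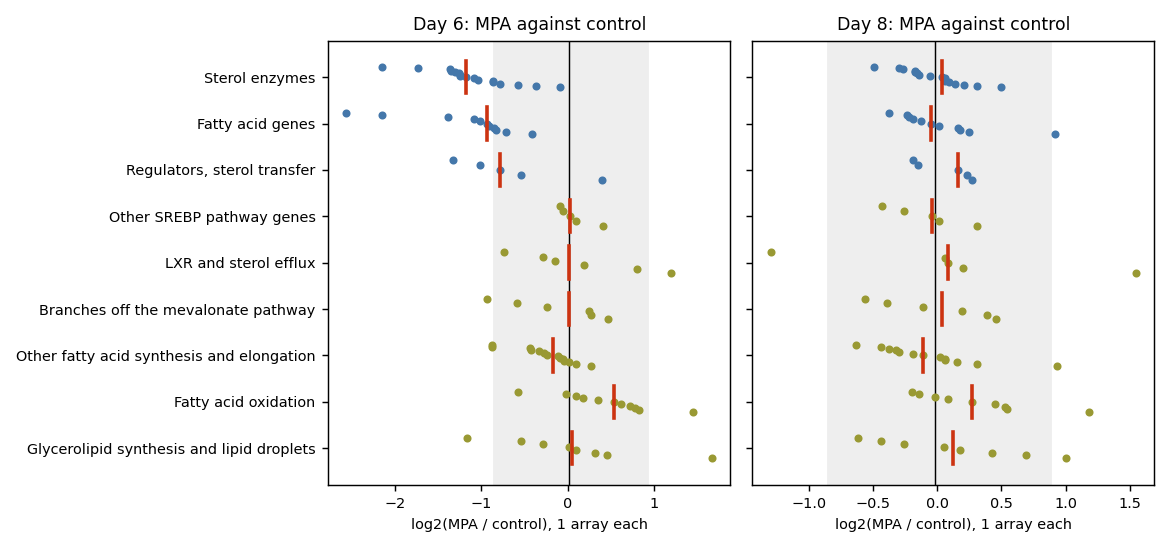
Log2 ratio of the MPA array to the control array (horizontal axis) at day 6 and day 8 for the member groups (blue) and for related lists of lipid genes that are no members (olive). Points are genes, red bars are medians, and the grey band holds the 5th to 95th percentile of all measured genes. The band shows single genes and is no error range for a median. At day 6 the medians are -1.18 for the sterol enzyme genes and -0.93 for the fatty acid genes, and at day 8 the medians of the 3 member groups are at most 0.16 from 0.

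Markers of cell types moved between the day 6 arrays as well. The summed signal of the neural progenitor markers was 2360 in the day 6 control and 736 with MPA, and 7 of 7 measured ones were lower. At day 8 it was 10762 and 1232, again with 7 of 7 lower. The summed signal of definitive endoderm markers was 11437 in the day 6 control and 18560 with MPA, and 6 of 7 were higher. The hepatic and extraembryonic endoderm sum went from 1018 to 3431, most of it Ttr (342 against 2410). Of the cycling-cell genes 7 of 7 were lower with MPA on both days, by medians of -0.29 at day 6 and -0.35 at day 8. The adipocyte genes Adipoq, Cidec and Fabp4 were under the floor on all 5 arrays, and Lpl was 1220 in the day 6 control against 414 with MPA. The summed mesenchyme signal was 3846 against 4511, that of pluripotency genes 9242 against 8610, and that of pancreatic progenitor genes 2148 against 2192. Of 5 measured pancreatic progenitor genes 3 were higher and 2 lower (median 0.53). Mnx1 was 1520 in the day 6 control against 1220 with MPA, and Sox9 321 against 617. The part of these marker differences in the member values was not tested.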

How the data were processed

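The data are 5 arrays, 1 per group, grouped by the labels, which also give days and dose. A 3' IVT kit turned total RNA into biotinylated cRNA, per the labels' protocols. The values the authors deposited are linear intensities, 1 for each probe set on each array, made with MAS5 per the submitters' processing notes (version not given in the sources used here), with a 2% trimmed mean of 500 on every array. Probe sets were named from the platform annotation: of 45101, 34945 had 1 gene symbol, 932 several, and 9160 none. The members and lists were chosen with earlier results of these data known, and named genes are all members plus, per related list and comparison, the genes furthest from 0 among those above the floor on both arrays. Abcg1 is named outside that rule.

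Signals were raised to the floor of 86.8 and taken to log2. A gene counted as measured with at least 1 of both arrays above the floor, and 2-fold differences were counted. Dim MAS5 signals vary much on a log scale, and the number of arrays limits precision. limma 3.58.1 (R 4.3.3) was run with trend and robust settings and Benjamini-Hochberg adjustment on genes with at least 2 of 4 arrays above the floor, after being tested on simulated data. Other steps used Python 3.11.15 with pandas 2.3.3 and numpy 2.4.6. Promoter windows came from RefSeq GRCm38.p6. Alternatives changed the scaling, the floor, the choice of probe set, the fit and the control array.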

Additional observations from a re-analysis of the deposited data

Results flagged for a closer look

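For 9 genes, the members and those named by the rule for related lists, the MPA array lay on opposite sides of its control at day 6 and at day 8, by at least 0.26 log2 on each day. The difference between the days was not tested, since each day has 1 array per group. Among the members, the log2 difference at day 8 minus that at day 6 was 1.85 for Me1, 1.60 for Insig1, 1.59 for Sc5d and 1.09 for Fdft1, each lower with MPA at day 6 and higher at day 8. Second probe sets of Me1, Sc5d and Fdft1 differed from their control at day 8 by 0.06, -0.19 and -0.01 log2, so they do not show the higher value there. Among genes that are no members, it was 2.16 for Lpin1, 1.40 for Pdss2 and 0.98 for Fntb, a farnesyltransferase subunit, also lower at day 6 and higher at day 8. For Agpat2, an acyltransferase of glycerolipid synthesis, it was -0.94, and for Ggps1, geranylgeranyl diphosphate synthase, -0.66, both higher with MPA at day 6 and lower at day 8.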

How the results depend on the processing

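Of 307 values recomputed under 14 alternatives for 37 results, 275 stayed close to the reported one (medians within 0.25 log2, counts within 1.5 times), and 32 moved. The sign changed in 7 of the 307, each from a reported value of at most 0.25 in size. Among these, the sterol minus fatty acid difference went from -0.25 to 0.08 and 0.22 for MPA at day 6, from 0.09 to -0.17 for MPA at day 8 and from -0.19 to 0.04 from day 5 to day 8. The sterol enzyme median for MPA at day 8 went from 0.04 to -0.06 and -0.21, and the fatty acid median under MPA from day 6 to day 8 from 0.03 to -0.01. All 7 came with the mean over probe sets or the second brightest probe set. The cause was not tested, except that fewer genes entered where stated. Scaling moved the median of all genes by under 0.1 log2. With the day 8 control for MPA at day 6, the sterol enzyme median was -0.64 and the fatty acid median -0.11, with 6 fatty acid genes lower. With the day 5 control the sterol enzyme median was -1.46. Members 2-fold apart between day 5 and day 6 numbered 0 with quantile normalization, with log2(signal + floor) and with the mean over probe sets, and 2 without the suffixed probe sets.

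With the mean over probe sets, the sterol enzyme median for MPA at day 6 was -0.87 and the sterol minus fatty acid difference 0.08. The fatty acid median from day 6 to day 8 was -0.53 (difference 0.11) and from day 5 to day 8 -0.43. Under MPA from day 6 to day 8 the sterol enzyme median was 0.40, the difference 0.39 and the members 2-fold apart 2. Without the suffixed probe sets the fatty acid median from day 5 to day 8 was -0.52.

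The second brightest probe set was used only where it lay above the floor on all 5 arrays. That left 8 sterol enzyme genes, 9 fatty acid genes and 19 members, which lowers the counts. For MPA at day 6 it gave a sterol enzyme median of -0.59, a difference of 0.22, 8 sterol enzyme genes lower and 7 members 2-fold apart. For MPA at day 8 the difference was -0.17. From day 5 to day 6, 8 sterol enzyme genes were lower and 3 members 2-fold apart. From day 6 to day 8 the sterol enzyme median was -0.14, the difference 0.65, 4 sterol enzyme genes were lower and 4 members 2-fold apart. From day 5 to day 8 the sterol enzyme median was -0.59, with 8 lower and 4 members 2-fold apart, and under MPA from day 6 to day 8, 2 members were 2-fold apart. In the limma fit 0 members passed under every alternative run, with the smallest adjusted p between 0.585 and 1. No paired analysis was possible because the labels give no replicate numbers, beyond the limma fit, which sets MPA against control within each day. With 1 array per group no replicate could be left out.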
